A study of Mus musculus with 2 samples.

Results

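Imprinted genes are expressed from only 1 parental allele, and 34 of them were followed here across the cell classes and myogenic states of injured mouse muscle. They were taken by symbol from the 55487 genes listed, each matched 1 row, and they were kept apart by the allele that is known to be active. The counts do not tell the alleles apart, so which allele gave the RNA was not measured. That gave 21 paternally expressed genes, 12 maternally expressed genes and Gnas, whose locus makes transcripts of either allele. Most imprinted genes, though not all, depend on DNA methylation on 1 allele of a control region. That methylation is laid down in the egg or the sperm and kept as body cells divide. The zinc finger protein Zfp57 reads the methylated letters TGCCGC in such regions and recruits Trim28 and Setdb1, the methyltransferase that places trimethylation on lysine 9 of histone H3. Many imprinted genes act on growth and on the exit from the cell cycle, and several are known to be high in muscle stem cells.

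Cells came from injured tibialis anterior muscle of mice aged 8 to 12 weeks, sorted on Hoechst and propidium iodide staining. The first library was labelled WT (wild type) and the other came from the Setdb1-cKO model, in which Setdb1 is deleted conditionally (KO). The sources used here do not give the kind of injury, the day after it, the Cre driver, the sex or how many animals went into a library. The title names the role of Setdb1 in the stem cells of regenerating muscle. Because each group is 1 library, no test over animals could be made: every difference is one between these libraries. Brackets give 95% intervals that take in counting error alone.

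Promoter windows of the members show where the letters read by Zfp57 lie. RefSeq windows of 300 bases, from 250 before to 50 after a gene's start in GRCm38.p6, matched 28 of the 34 members; Cdkn1c, H19, Impact, Peg10, Rtl1 and Sgce were not matched. The letters TGCCGC, searched on both strands (GCGGCA on the other), were in a window of 9 matched members (32.1%), against 13.1% of all 27025 symbols with a window. The 9 were Mest, Plagl1, Igf2, Snrpn, Nap1l5 and Nnat of the paternally expressed genes and Meg3, Grb10 and Zim1 of the maternally expressed genes. A symbol counted if any of its windows held a match, and some members have several windows, so these shares are not fully alike. Of all 32851 windows 11.6% held a match. The median number of CpG pairs in a window was 14 for the members and 8 for all symbols. Below are 4 windows, each read along its gene from 5′ to 3′ with every match in capitals. Mest and Plagl1 are shown as paternally expressed genes far lower in KO myogenic cells, Meg3 as a maternally expressed gene with a match, and Peg3 as a gene of the same muscle stem cells whose window holds no match. The windows lie at chr6:30737800-30738099 on the plus strand (Mest), chr10:13090582-13090881 on the plus strand (Plagl1), chr12:109540746-109541045 on the plus strand (Meg3) and chr7:6730370-6730669 on the minus strand (Peg3).
Mest promoter: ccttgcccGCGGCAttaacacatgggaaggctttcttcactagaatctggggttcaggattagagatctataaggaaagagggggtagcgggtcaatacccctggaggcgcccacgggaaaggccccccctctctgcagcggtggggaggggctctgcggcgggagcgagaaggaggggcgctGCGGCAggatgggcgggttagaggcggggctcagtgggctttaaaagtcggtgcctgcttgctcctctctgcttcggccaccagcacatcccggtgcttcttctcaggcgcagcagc
Plagl1 promoter: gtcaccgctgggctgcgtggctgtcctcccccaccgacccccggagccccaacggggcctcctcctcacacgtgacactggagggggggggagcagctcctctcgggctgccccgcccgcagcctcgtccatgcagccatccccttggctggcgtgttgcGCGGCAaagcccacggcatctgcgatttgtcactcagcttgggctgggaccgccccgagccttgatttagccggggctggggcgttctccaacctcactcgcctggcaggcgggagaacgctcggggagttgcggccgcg
Meg3 promoter: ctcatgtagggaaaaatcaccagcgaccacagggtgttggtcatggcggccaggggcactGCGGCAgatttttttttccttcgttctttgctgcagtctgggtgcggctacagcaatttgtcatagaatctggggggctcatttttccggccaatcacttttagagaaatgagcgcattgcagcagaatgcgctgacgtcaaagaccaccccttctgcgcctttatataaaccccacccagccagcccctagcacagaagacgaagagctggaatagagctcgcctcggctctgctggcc
Peg3 promoter: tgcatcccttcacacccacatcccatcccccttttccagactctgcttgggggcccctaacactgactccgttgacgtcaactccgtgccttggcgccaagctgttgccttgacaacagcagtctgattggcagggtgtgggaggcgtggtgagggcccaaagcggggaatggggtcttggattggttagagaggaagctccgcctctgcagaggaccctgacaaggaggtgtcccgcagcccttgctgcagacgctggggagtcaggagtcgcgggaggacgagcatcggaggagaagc
A match is a description of these letters and not a bound site, and methylation and binding were not measured. A window without a match says nothing of the letters outside it. The Mest window holds 2 matches, starting at positions 9 and 184, and the Plagl1 and Meg3 windows hold 1 each, at 161 and 61. Of the 8 members with a match and enough UMIs in myogenic-like cells, 5 were at least 1.5-fold lower in the KO library, as were 3 of 12 with a window and no match and 3 of 5 without a window, beside 12.1% of all genes measured in that class. These shares were not tested against each other. The 3 lower members with a window and no match were Gnas (0.662), Slc38a4 (0.432) and Ppp1r9a (0.335). With a match but not lower past the fold were Grb10 (0.845), Meg3 (0.749) and Nap1l5.

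The WT library held 121703522 UMIs (unique molecular identifiers, each 1 captured RNA molecule) and the KO library 138667420. After filtering, 6314 WT and 5730 KO cells remained, with medians of 12118 and 13006.5 UMIs, and 6 cell barcodes were shared by both libraries, none of them in myogenic-like cells. Clusters were built without the 34 members and other known imprinted genes. Among them were 7 cell classes that had 50 cells or more on both sides, named with the ending "like" from marker genes. Myogenic-like cells, the muscle stem cells and their progeny, numbered 682 WT and 373 KO cells. They fell into a stem state led by Pax7 and Myf5 (524 WT and 189 KO cells), a cycling state (117 and 120) and a differentiating state led by Myog and Mymk (41 and 64). The KO library thus held 50.7% of its myogenic-like cells in the stem state against 76.8% in the WT library, and 17.2% against 6.01% in the differentiating state, for which the WT sum rests on fewer than 50 cells. Setdb1 itself stood at 18.2 CPM (UMIs of the gene per 1000000 UMIs of the summed cells) in WT and 8.82 CPM in KO myogenic-like cells, a KO/WT ratio of 0.484 [0.371 to 0.626]. In mononuclear phagocyte-like cells it was at 16.4 CPM (WT) and 21 CPM (KO). Its ratio was 1.24 in fibro-adipogenic or fibroblast-like and 1.05 in endothelial-like cells. In tenocyte-like (0.656 [0.370 to 1.16]), dendritic-like (0.741 [0.454 to 1.18]) and mural-like cells (0.856 [0.412 to 1.79]) it was below 1 with intervals that span 1.

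In myogenic-like cells 11 of the 25 measured members were at least 1.5-fold lower in the KO library, among them genes of both parental lists. A member counted as measured with at least 20 UMIs over both libraries together. Of these 25, 24 had a KO/WT ratio below 1, though not all with an interval that excludes it, beside 6207 of all 13579 genes measured. Among 15 measured paternally expressed genes, 6 were at least 1.5-fold lower (Mest, Peg10, Igf2, Plagl1, Snrpn and Slc38a4) and 1 was that much higher. Of 9 measured maternally expressed genes 4 were lower (H19, Cdkn1c, Zim1 and Ppp1r9a) and 0 higher. Over all 13579 genes measured in this class, 12.1% were lower by that fold and 12.1% higher. The median log2 ratio of CPM + 5 was -0.37 for the paternally and -0.39 for the maternally expressed genes, beside 0.03 for all genes. A list of 14 stem genes with Pax7 and Myf5 among them had a median of -0.40. Of its 13 measured genes 6 were lower past the fold and 0 higher. Of 19 differentiating genes 1 was lower and 13 higher. The part of the unlike state shares in the member ratios of the whole class was not tested. The 1 higher gene was Nap1l5, with 12 UMIs in each library and a ratio of 1.5 [0.617 to 3.65], so its direction is not resolved at this depth. Gnas, kept apart, was also lower past the fold. Summed over cells of every class, 7 of 19 measured paternally expressed genes were lower past the fold and 0 higher, and 4 of 12 maternally expressed genes were lower and 2 higher, beside 7.51% lower and 7.36% higher of all genes. Such a sum also follows how many cells of each class a library holds, so the classes are taken one by one below.

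**Figure D1:**
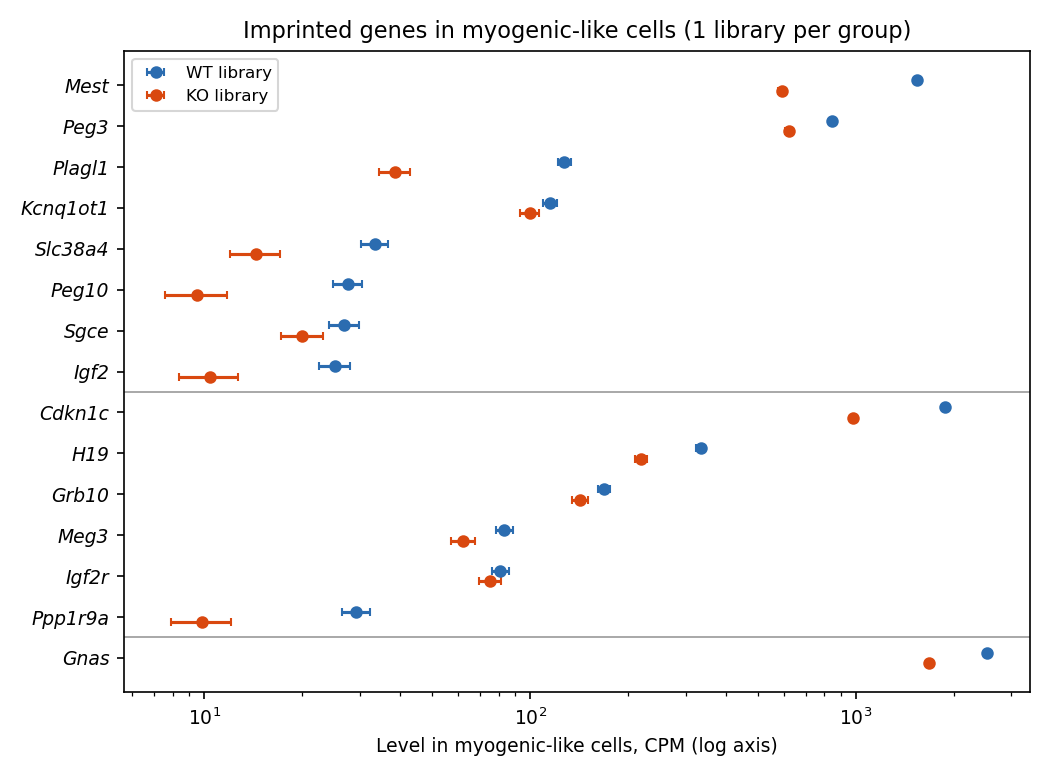
Level of the 15 members with at least 20 CPM in 1 library in myogenic-like cells, as CPM on a log axis, with 95% counting intervals; blue points are the WT and orange points the KO library, and lines part paternally expressed genes (top), maternally expressed genes (middle) and Gnas (bottom). All 15 KO points lie left of the WT points, with intervals that overlap for Igf2r alone.

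Paternally expressed genes known to act on growth and cell fate are given first. Plagl1, a zinc finger transcription factor that heads a network of imprinted genes and can halt the cell cycle, stood at 127 CPM in WT cells against 38.4 CPM in KO cells, a ratio of 0.302 [0.268 to 0.339]. Igf2, the insulin-like growth factor of fetal growth, was at 25.2 and 10.4 CPM (0.413 [0.325 to 0.521]). For neither gene did the counting intervals of the libraries overlap. Mest, an enzyme-like protein of mesoderm, was at 1543 CPM [1522 to 1564] in WT cells against 593 CPM [577 to 609] in KO cells, a ratio of 0.384. Peg3, a zinc finger protein known to mark muscle stem cells, was at 846 and 623 CPM (0.736 [0.713 to 0.760]). Mest thus lay further below its WT level than Peg3 did in the same cells, with ratio intervals that lie apart.

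Peg10, which derives from a retrotransposon, was at 27.6 CPM in WT cells against 9.49 CPM in KO cells (0.344 [0.268 to 0.436]). Its neighbour Sgce, the epsilon subunit of the sarcoglycan complex, starts beside it on the opposite strand and was at 26.9 and 19.99 CPM (0.744 [0.619 to 0.893]). The amino acid transporter gene Slc38a4 was at 33.3 and 14.4 CPM (0.432 [0.352 to 0.527]). Kcnq1ot1, the long RNA that silences its neighbours on the paternal chromosome, was closest to no difference of the well-counted paternal genes, at 115 and 99.6 CPM (0.866 [0.797 to 0.941]). Snrpn, a splicing protein gene, was lower with fewer UMIs, at 10.2 and 5.81 CPM (0.570 [0.406 to 0.789]). Peg12, Ndn, Impact, Usp29 and Airn stayed under 20 CPM in both libraries, with ratios from 0.700 (Ndn) to 0.855 (Peg12).

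Little or no RNA of the remaining paternally expressed genes was found in these cells. Dlk1, a Notch-like ligand studied in muscle growth, gave a sum of 8 WT and 7 KO UMIs. Mkrn3 gave 13 and 5 UMIs and the brain-enriched Nnat 13 and 3. Rtl1, Magel2 and Rasgrf1 gave 0 UMIs in both, which allows levels of up to 0.223 CPM (WT) and 0.335 CPM (KO) (3 counts of each total).

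Among the maternally expressed genes, Cdkn1c encodes the cyclin-dependent kinase inhibitor p57Kip2, which holds cells out of the cycle as muscle differentiates. It stood at 1882 CPM [1859 to 1905] in WT cells against 981 CPM [961 to 1002] in KO cells, a ratio of 0.521. Differentiating cells, which carry far more of it, were a larger share of the KO than of the WT cells. With the 3 states weighted by their WT shares the ratio was 0.308. H19, a long noncoding RNA that shares enhancers with Igf2, was at 334 and 219 CPM (0.655 [0.621 to 0.691]). Ppp1r9a, the actin-binding neurabin, was at 29.3 and 9.83 CPM (0.335 [0.263 to 0.423]) and Zim1, a zinc finger gene beside Peg3, at 19.1 and 9.49 CPM (0.498 [0.385 to 0.639]).

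The receptors and signal adaptors among the maternally expressed genes differed less. Igf2r, the receptor that clears Igf2 to the lysosome, was at 81.1 and 75.5 CPM, with a ratio whose interval spans 1 (0.932 [0.845 to 1.03]). Grb10, an adaptor that dampens insulin and Igf signalling, was at 168 and 142 CPM (0.845 [0.789 to 0.906]). Meg3, the long noncoding RNA of the Dlk1 domain, was at 83.4 and 62.4 CPM (0.749 [0.676 to 0.830]), but 1 WT cell held 21% of its WT UMIs, and without the top cell of each library the ratio was 0.861. Weighting the states by their WT shares put Meg3 at 1.09, and weighting every cell equally at 1.26, so its direction in the whole class depends on how cells are weighted. Gnas, which encodes the stimulatory G protein alpha subunit, was at 2525 and 1673 CPM (0.662 [0.650 to 0.675]). Mirg gave 11 and 3 UMIs, Phlda2 11 and 2, and Slc22a18 2 and 0.

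Within the stem state, 6 of 15 measured paternally expressed genes were lower by 1.5-fold or more and 1 higher, and 5 of 9 maternally expressed genes were lower and 0 higher, beside 10.8% lower and 13.7% higher of all 12204 genes measured there. Of the 13 measured stem genes 3 were lower past the fold in this state and 0 higher, with a median log2 ratio of -0.25. Centring on the median of all genes would lower ratios there by 0.12 on the log2 scale (also 0.12 in tenocyte-like and 0.11 in dendritic-like cells). Mest was at 1734 CPM in WT cells against 718 CPM in KO cells (0.414 [0.397 to 0.431]), and Plagl1 at 162 and 63.0 CPM (0.388 [0.337 to 0.445]). Cdkn1c was at 1801 and 438 CPM, a ratio of 0.243 [0.231 to 0.256] and the lowest of the 18 members with 20 CPM in this state. H19 was at 373 and 168 CPM (0.451 [0.414 to 0.491]). Its partner Igf2 was at 31.4 and 10.6 CPM (0.337 [0.236 to 0.470]), so the total RNA of both genes of this oppositely imprinted pair was lower. Peg10 was at 28.4 and 10.3 CPM (0.363), and Peg3, itself among the top 10 genes that mark this cluster although it was not used to build it, at 971 and 839 CPM (0.863 [0.829 to 0.899]) and Meg3 at 115 and 126 CPM (1.09 [0.977 to 1.22]).

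Cycling cells held Cdkn1c, Peg10, Plagl1 and Mest at low KO/WT ratios too, but not Slc38a4. In that state 4 of 14 paternally expressed genes were lower past the fold and 1 higher (Airn), and 3 of 9 maternally expressed genes were lower and 0 higher, beside 9.31% lower and 8.96% higher of all genes. Mest was at 1326 CPM in WT cells against 565 CPM in KO cells (0.426 [0.403 to 0.45]). Plagl1 was at 71.4 and 28.8 CPM (0.404 [0.315 to 0.513]), and Peg10 at 32.5 and 10.4 CPM (0.320 [0.212 to 0.472]). Cdkn1c was low in both, at 381 and 100.7 CPM (0.264 [0.234 to 0.298]). With states taken from each cell's own markers the Cdkn1c ratio in cycling cells was 0.458. Slc38a4 was at 39.0 and 13.8 CPM in the stem state (0.353) and at 25.6 and 19.6 CPM in cycling cells (0.766 [0.547 to 1.07]). H19 was nearer to 1 than in the stem state, with a ratio of 0.757 [0.682 to 0.841], and so was Gnas with 0.854 [0.822 to 0.887].

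Differentiating cells held the highest Cdkn1c levels of any state in both libraries, 7169 CPM [7010 to 7330] in WT cells against 3751 CPM [3662 to 3841] in KO cells (0.523 [0.506 to 0.541]). Mest was at 618 and 384 CPM (0.622 [0.558 to 0.692]). H19 went the other way there, at 272 and 382 CPM, with a ratio of 1.40 [1.22 to 1.61] (1.07 with states from own markers), and Gnas was nearly level (0.976 [0.919 to 1.04]). In all, 2 of 9 paternally expressed genes were lower past the fold and 2 higher, and 1 of 6 maternally expressed genes was lower and 0 higher, beside 10.2% lower and 12.9% higher of all genes. Mest and Cdkn1c thus had ratios below 1 in each of the 3 states, with intervals that exclude it, whereas H19 did not. Peg3 did so with these clusters but was at 1.01 in the stem state when states came from each cell's own markers. In the differentiating state the libraries were also unlike in other genes. Myog was at 4670 CPM in WT cells against 3321 CPM in KO cells, and Mymk at 1114 and 824 CPM. Of 19 differentiating genes measured there, 14 had a ratio below 1. Past the fold 5 were lower and 0 higher, beside 10.2% lower and 12.9% higher of all genes. The part of this in the member ratios was not tested. The difference between states was not tested, since each state has 1 library per group.

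**Figure D2:**
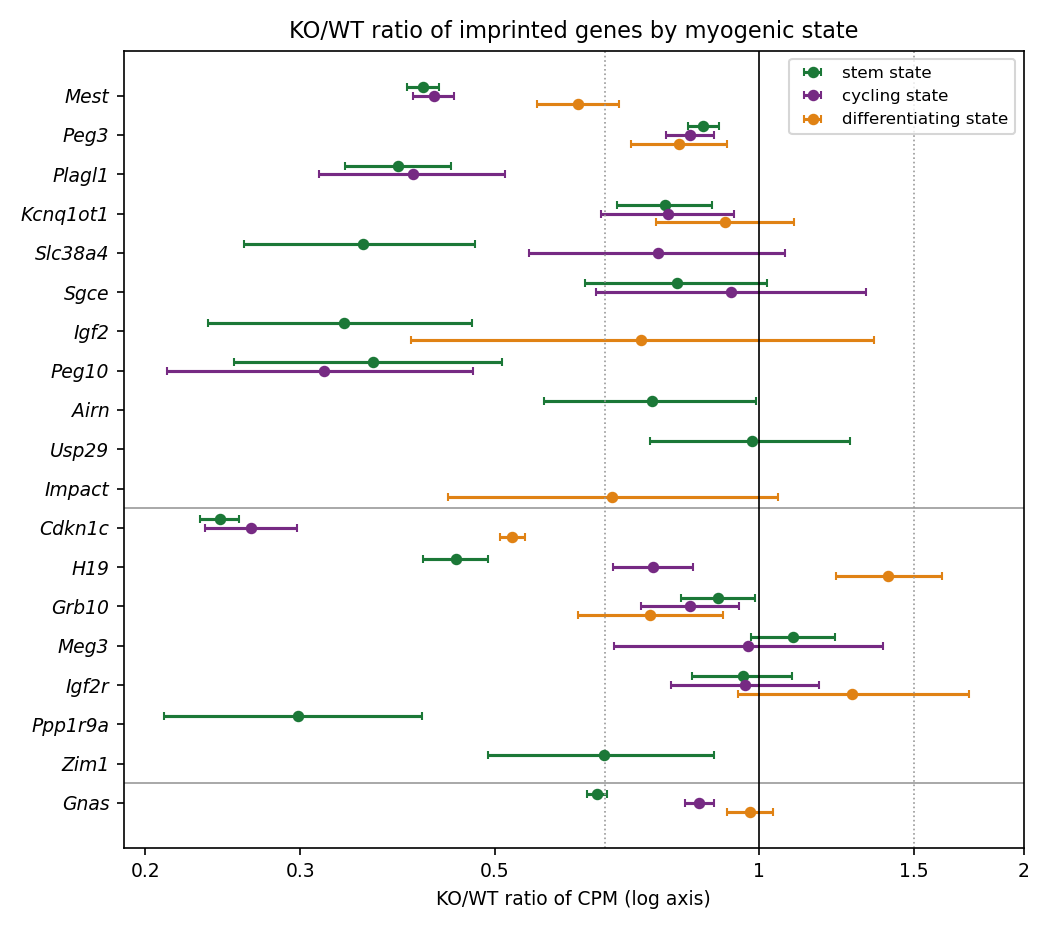
KO/WT ratio of CPM (log axis) of each member with at least 20 CPM in 1 library, by myogenic state, with 95% counting intervals; the solid line marks equal levels and the dotted lines 1.5-fold. Cdkn1c lies near 0.243 and 0.264 in the stem and cycling states and at 0.523 in the differentiating state, and H19 runs from 0.451 through 0.757 to 1.40.

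Levels cell by cell show how widely the differences were spread over the stem cells. In the stem state the Mest level of a cell ran from 0 to 6244 CPM in the WT library with a median of 1666 CPM, and from 0 to 2777 CPM with a median of 664 CPM in the KO library. At least 1 Mest UMI was found in 99.2% of WT and 88.9% of KO stem cells. Nearly all cells thus still carried Mest RNA in the KO library, at a lower level. For Cdkn1c the median was 1058 CPM in WT cells (0 to 11019) and 29.0 CPM in KO cells (0 to 7968), and 86.5% and 51.3% of cells held a UMI. Here about as many KO stem cells held a UMI as held none, and 1 KO cell held 16.7% of the KO UMIs; the ratio without the top cell of each library was 0.208. The median for Plagl1 was 115 CPM in WT cells and 0 in KO cells, and for H19 258 and 73.5 CPM. Peg3 medians were close, at 860 and 715 CPM.

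**Figure D3:**
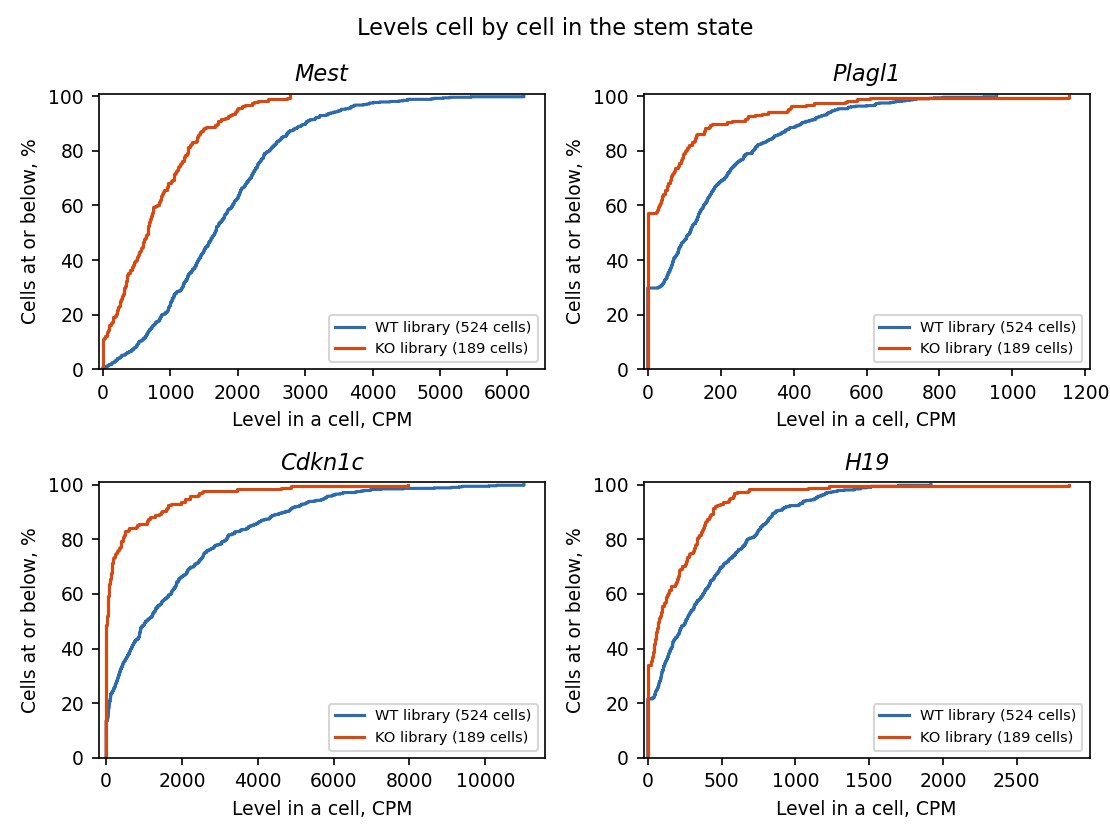
Share of stem-state cells (percent) at or below each level (CPM in a single cell) for 4 members, with the WT library (524 cells) in blue and the KO library (189 cells) in orange. The KO curves lie above the WT curves over nearly the whole range, which shows lower levels across most cells, and the Cdkn1c curve of the KO library starts near 50% because 51.3% of cells held a UMI.

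Shares of cells with a UMI were also compared at equal depth, with each cell thinned to 1000 UMIs and none left out, for the 8 members with the highest WT level. For Mest 72.3% [68.8 to 75.6] of WT and 42.6% [37.6 to 47.8] of KO myogenic-like cells held a UMI. Cdkn1c was found in 55.4% [51.6 to 59.2] and 22% [17.9 to 26.5], and Plagl1 in 11.1% [8.88 to 13.7] and 4.29% [2.47 to 6.87]. These 3 pairs of intervals lie apart, as do those of Peg3 (56.0% and 42.6%) and Gnas (88.7% and 81.5%). For H19 (25.5% and 18.2%), Kcnq1ot1 (12.5% and 10.7%) and Grb10 (13.3% and 13.7%) the intervals overlap. The KO/WT ratio of shares was nevertheless further from 1 for H19 (0.715) than for Gnas (0.919). Mononuclear phagocyte-like cells, taken as the background of free RNA at the same depth (median 11442 UMIs in WT cells and 12229.5 in KO cells before thinning), gave 0.656% and 0.438% for Mest and 1.34% and 0.613% for Cdkn1c. Gnas was found in 48.6% and 48.8% of them, a gene that these cells express. Before thinning the myogenic-like medians were 17391.5 (WT) and 21313 (KO) UMIs. The unthinned shares given further above are of stem-state cells, whose medians were 16498 (WT) and 18193 (KO) UMIs.

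The stem states of the libraries were not alike in other genes. Within this state Myog, the switch gene of differentiation, was at 50.9 CPM in WT cells against 139 CPM in KO cells, Pax7 at 191 and 140 CPM, and the mitosis gene Top2a at 15.5 and 32.6 CPM. With finer clusters (Leiden resolution 2) the stem cluster held 452 WT and 72 KO cells, against 524 and 189 here. The ratios were therefore taken again over the 321 WT and 82 KO stem cells with no UMI of Myog, Mymk, Mki67 or Top2a (median 14957 and 15228 UMIs), a choice made after these values were seen. Cdkn1c was then at 1842 and 244 CPM (0.132 [0.118 to 0.148]), further from 1 than over all stem cells. Peg10 had 4 KO UMIs there and a ratio of 0.105 [0.0282 to 0.274]. Mest, at 0.425 [0.397 to 0.454], was close to its value over all stem cells, and H19 was at 0.384 [0.329 to 0.445]. Plagl1 was nearer to 1 at 0.551 [0.455 to 0.663]. Peg3 (1.04 [0.980 to 1.11]), Zim1 (1.07 [0.716 to 1.57]) and Igf2r (1.04 [0.852 to 1.27]) were no longer below 1, and Meg3 was higher in the KO library (1.46 [1.27 to 1.66]). In these cells some members, Cdkn1c and Mest among them, were thus lower by a large factor, and others were not lower. When each cell took its state from its own markers, stem ratios were 0.619 for Plagl1, 0.513 for Ppp1r9a, 0.121 for Peg10, 2.08 for Meg3 and 1.05 for Zim1.

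Several other signals moved with the group in these cells, and their part in the results was not tested. The summed level of 12 immediate early and heat shock genes (chosen after the data were seen) was 13255 CPM in WT and 9005.5 CPM in KO stem cells, with all 12 lower. The 27 phagocyte markers summed to 1238 CPM in WT and 2125 CPM in KO myogenic-like cells, 25 of them higher in the KO library. The 18 fibro-adipogenic markers summed to 1741 and 1508 CPM, and the 7 erythroid markers to 44.5 and 811 CPM, nearly all of the latter in cycling KO cells (2116 CPM). Of the 12 neutrophil markers, which summed to 3.42 and 4.47 CPM, Mmp8, Ly6g, Lcn2, Camp, Ngp and Ltf were at 0 in both. Free RNA was put at 0.912% of WT and 0.790% of KO myogenic-like UMIs, from the marker of another cell type that gave the lowest value. A marker with few counts can set this too low, and in KO stem cells, a part of that class, it was 0. Subtracting this share moved none of the ratios of the 15 members with 20 CPM in these cells beyond their counting error. So small a share could hardly move them, so the part of free RNA was not tested.

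Across the 7 classes the members had different homes. Of 30 members with enough UMIs in at least 1 class, 12 had their highest WT level in myogenic-like cells, each with an interval apart from that of the next class. They were Mest, Peg3, Plagl1, Igf2, Peg10, Peg12, Slc38a4, Usp29, Cdkn1c, Zim1, Ppp1r9a and Gnas. Fibro-adipogenic or fibroblast-like cells, the connective tissue cells of muscle, were highest for 9, including H19, Meg3, Rian, Ndn and Grb10, with intervals apart from the next class for 5 of them. Mural-like cells, the pericytes and smooth muscle cells of vessels, were highest for 6, with intervals apart for 2. In the KO library the highest class for Plagl1, Peg10, Slc38a4 and Gnas was instead fibro-adipogenic or fibroblast-like.

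**Figure D4:**
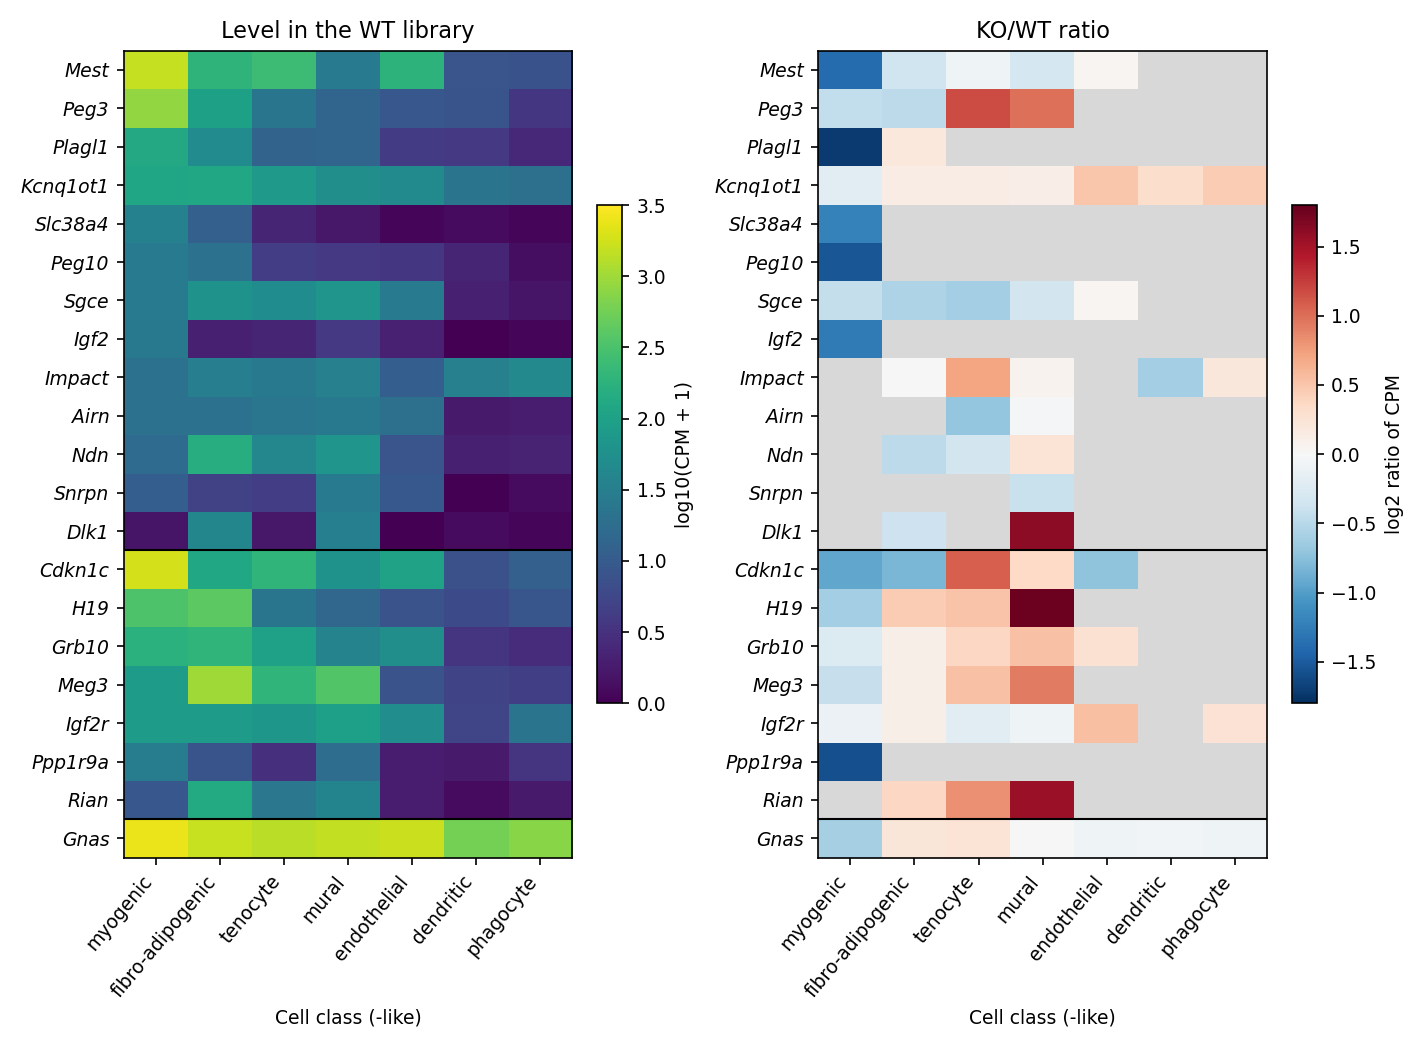
Members with at least 20 CPM in 1 library of at least 1 class, by cell class: left, level in the WT library as log10(CPM + 1); right, log2 KO/WT ratio of CPM, with grey where a member had under 20 UMIs or 20 CPM. Every coloured cell of the myogenic column of ratios is blue, that is below equal levels, and Meg3, Rian, Dlk1 and H19 are red in mural-like cells.

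Fibro-adipogenic or fibroblast-like cells (737 WT and 773 KO) gave ratios on both sides of 1. Classes other than the myogenic were not split by cycle state. Of 20 cycling genes 17 were higher past the fold here and 0 lower, beside 10.4% higher of all genes. It was 13 of 20 in mural-like (12.8%), 15 of 16 measured in tenocyte-like (16.6%) and 2 of 20 in endothelial-like cells (9.95%). The part of this in the member ratios was not tested. Of 15 paternally expressed genes 2 were lower past the fold and 2 higher, and of 12 maternally expressed genes 6 were lower and 0 higher, beside 10.2% lower and 10.4% higher of all genes; of these, Cdkn1c alone reached 20 CPM. Plagl1, at 47.6 CPM in WT cells against 54.4 CPM in KO cells, had a ratio of 1.14 [1.05 to 1.25], against 0.302 in myogenic-like cells. H19 was at 416 and 569 CPM (1.37 [1.33 to 1.41]) and Rian at 139 and 180 CPM (1.30 [1.23 to 1.36]). Meg3 was at 1007 and 1085 CPM (1.08). With cells of 500 UMIs or more allowed, Plagl1 and Meg3 were on the other side of 1 in this class, at 0.963 and 0.904. Cdkn1c was lower as in myogenic-like cells, at 124 and 70.1 CPM (0.564 [0.529 to 0.601]), and Mest less so, at 191 and 149 CPM (0.782 [0.746 to 0.820]). Peg3, at 96.1 and 69.4 CPM (0.722), and Sgce, at 59.4 and 40.5 CPM (0.682), had ratios close to their myogenic ones, and Dlk1 was at 39.4 and 30.4 CPM (0.772). Ndn, a neuronal growth suppressor also found in mesenchymal cells, was at 152 and 110 CPM (0.722 [0.684 to 0.763]).

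Endothelial-like cells (650 and 567) held Mest at 180 CPM in WT cells against 183 CPM in KO cells, with a ratio whose interval spans 1 (1.02 [0.945 to 1.10]). Cdkn1c was at 103 and 62.5 CPM (0.607 [0.539 to 0.684]). Among 12 paternally expressed genes 0 were lower past the fold and 1 was higher, and of 6 maternally expressed genes 1 was lower, beside 4.43% lower and 9.95% higher of all genes. Igf2r (1.46 [1.27 to 1.67]) and Kcnq1ot1 (1.42 [1.23 to 1.64]) were higher without reaching the fold.

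In mural-like cells (117 and 123) several genes of the Dlk1 domain were higher in the KO library. Meg3 was at 353 CPM in WT cells against 677 CPM in KO cells (1.92 [1.73 to 2.13]), Rian at 36.8 and 108 CPM (2.93 [2.15 to 4.05]), and the paternally expressed Dlk1 at 31.8 and 97.4 CPM (3.06 [2.20 to 4.34]). Genes of this domain from both parental lists were thus higher together in total RNA. These levels rest on few cells, since Dlk1 UMIs came from 18 WT and 30 KO cells, and with cells of 500 UMIs or more allowed in both libraries the ratios were 1.03 for Meg3, 1.17 for Rian and 1.14 for Dlk1. H19 was at 13.4 and 45.7 CPM, with 37.6% of its KO UMIs in 1 cell. In this class 1 of 11 paternally expressed genes was lower past the fold and 2 higher, and 1 of 9 maternally expressed genes lower and 4 higher, beside 8.8% lower and 12.8% higher of all genes.

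Tenocyte-like cells (88 and 114), the cells of tendon, had 3 of 8 paternally expressed genes lower past the fold and 2 higher, and 0 of 6 maternally expressed genes lower and 2 higher, beside 6.8% lower and 16.6% higher of all genes. Cdkn1c was at 193 and 407 CPM, but 1 KO cell held 67.3% of its UMIs, and without the top cell of each library the ratio was 0.745 in place of 2.11. Mest was at 246 and 234 CPM (0.95 [0.831 to 1.09]) and Peg3 at 21.7 and 48.6 CPM (2.25 [1.51 to 3.42]). Of the Dlk1 domain, Rian (1.77) and Meg3 (1.44) were higher in the KO library there too. Over 11 alternatives each, Rian ran from 1.63 to 3.19 and Meg3 from 1.33 to 2.32. In mononuclear phagocyte-like cells (3504 and 3424) the members with 20 CPM were Impact, Kcnq1ot1, Igf2r and Gnas, with ratios of 1.15, 1.38, 1.20 and 0.951. Of 20 measured members 4 were lower past the fold and 3 higher there, all below 20 CPM, beside 4.97% lower and 7.85% higher of all genes. Dendritic-like cells gave Impact, an inhibitor of the stress kinase Gcn2, at 32.4 and 21.1 CPM (0.651 [0.464 to 0.903]). That ratio was not past the fold under other settings, at 0.931 with a higher UMI minimum, 1.03 and 0.945 with minimums of 2000 and 500 UMIs, and 0.946 with each cell named by its own markers. There 3 of 10 measured members were lower past the fold (Mest, Peg3 and Impact) and 0 higher, beside 6.39% lower and 12.7% higher of all genes. Of these 3, Impact alone reached 20 CPM.

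The members lie in 16 stretches of the genome, and the genes around them help to place the differences. Outside the imprinted lists, 97 genes within 500 kb of a member were measured in myogenic-like cells. Of these 14.4% were lower past the fold and 10.3% higher, close to the 12.1% of all genes each way, with a median log2 ratio of -0.02. Plagl1 (chromosome 10, 13060504 to 13131694, GRCm38) lay between Sf3b5 with a ratio of 1.03 and Ltv1 with 1.02, both level. The imprinted gene Phactr2 further along was at 65.7 and 28.1 CPM (0.428 [0.371 to 0.493]).

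Around Mest (chromosome 6, 30723547 to 30748465) 5 of 14 measured genes were lower past the fold and 0 higher, beside 12.1% of all genes each way. Counts over so few genes were not tested against that share. Of the lower ones 4 lay on the left side. The nearest, Cep41, a gene of the primary cilium, was at 94.1 CPM in WT cells against 62.0 CPM in KO cells (0.659). The carboxypeptidase gene Cpa1, chosen after its values were seen, gave 82 WT and 5 KO UMIs (0.0915). Copg2, which overlaps the end of Mest on the other strand, was at 17.9 and 19.1 CPM (1.06). In the domain of Peg10, Sgce, Ppp1r9a and Asb4, 4 of 8 others were lower and 0 higher, with a median of -0.34, beside the same 12.1%. They were Pdk4, itself listed as imprinted, and the predicted genes Gm43921, Gm26814 and Gm44250, each with 92 WT UMIs or fewer. In the stretch from H19 to Phlda2, which holds members that were lower themselves, 0 of 21 others were lower and 3 higher, beside 12.1% of all genes each way. Among the higher were Tnfrsf23, at 9.60 and 40.4 CPM (4.21 [3.44 to 5.19]), and Tnfrsf22, at 1.19 and 10.3 CPM, decoy receptors listed as imprinted in the mouse. The remaining higher gene, Syt8, had only 13 WT and 20 KO UMIs. The sources used here do not state whether counting used strand, and Igf2r and Airn, Kcnq1ot1 and Kcnq1, and Mest and Copg2 may share reads where they overlap.

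**Figure D5:**
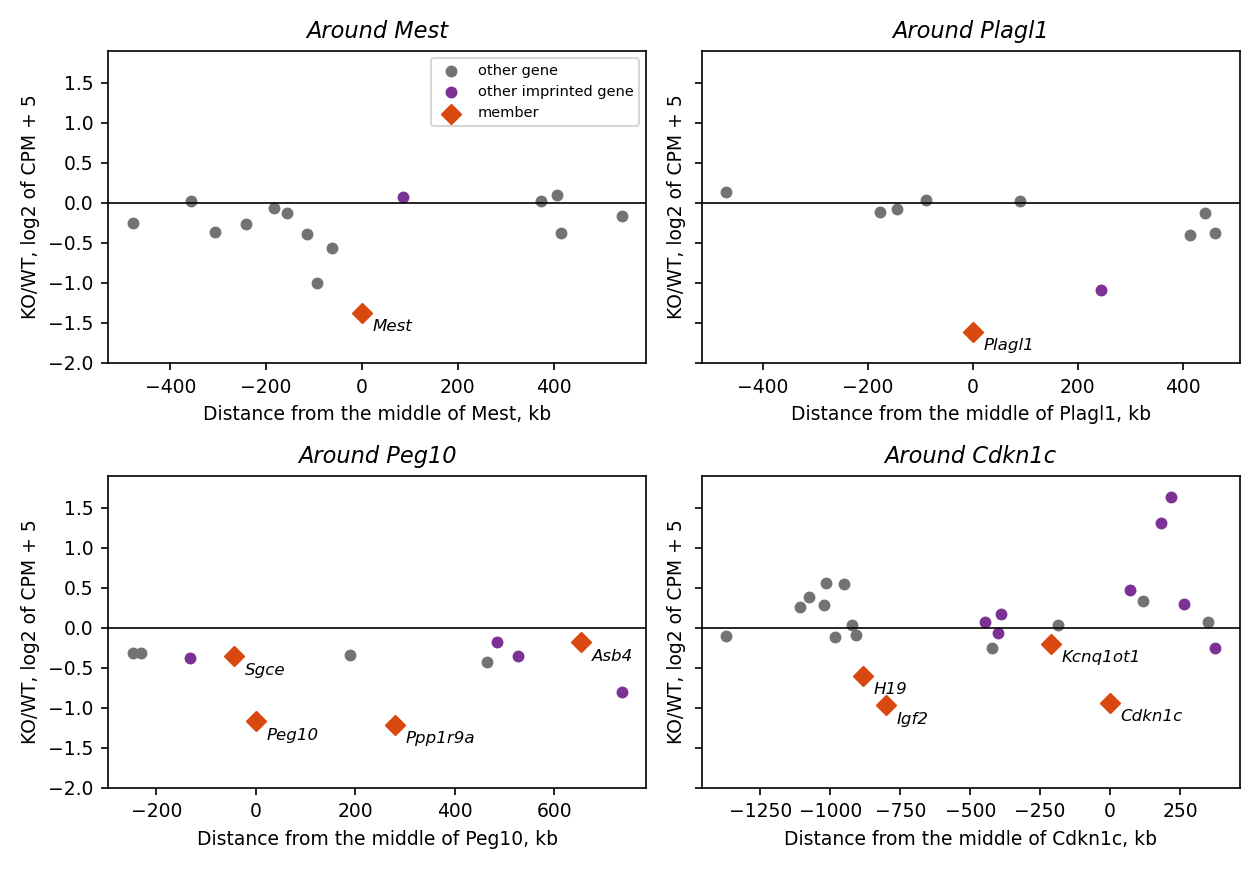
Log2 KO/WT ratio of CPM + 5 in myogenic-like cells for measured genes within 500 kb, against distance in kb from the middle of Mest, Plagl1, Peg10 or Cdkn1c; diamonds are members, purple points other imprinted genes and grey points other genes. Plagl1 lies far below its nearest neighbours, whereas Cep41 and Cpa1, the nearest points to the left of Mest, lie below 0 with it.

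Genes known to act on imprints were counted in the same way. Of 36 imprinting regulators, 31 were measured in myogenic-like cells, 1 was lower past the fold (Setdb1) and 4 were higher, beside 12.1% of all genes each way, with a median log2 ratio of 0.07. The higher ones included the maintenance methyltransferase gene Dnmt1, at 45.8 CPM in WT cells against 88.7 CPM in KO cells, its guide Uhrf1 at 18.3 and 37.9 CPM, and the remodeller gene Hells at 38.0 and 62.4 CPM. All 3 are known to be high in dividing cells, and cycling cells were 32.2% of KO and 17.2% of WT myogenic-like cells; the part of this in their levels was not tested. Zfp57 gave 73 and 39 UMIs (0.802 [0.529 to 1.20]), and Trim28 was at 57.8 and 67.2 CPM (1.16 [1.04 to 1.30]).

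A further 63 imprinted genes of the mouse outside the 34 were also followed. Of 39 measured, 21 were below 1, 6 lower past the fold and 2 higher, beside 12.1% of all genes each way, with a median log2 ratio of -0.03. Pdk4, a kinase that limits glucose oxidation, was at 34 and 17.3 CPM (0.509 [0.421 to 0.612]). Of 25 genes of the Plagl1 network and the Igf pathway, 23 were measured, 6 lower past the fold and 2 higher, beside 12.1% of all genes each way, with a median of -0.30. The proteoglycan gene Gpc3, which restrains Igf2 action, was at 63.0 and 6.26 CPM (0.0993 [0.0744 to 0.130]), and the binding protein gene Igfbp4 at 83.7 and 36.3 CPM (0.434 [0.382 to 0.491]). The cell cycle brake Rb1 was higher, at 21.7 and 41.1 CPM (1.89 [1.62 to 2.21]).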

How the data were processed

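The deposited matrices hold raw UMI counts, whole numbers for each gene in each barcode, which the authors had not normalized, judged from the values. Per the submitters' processing notes, GRCm38, Seurat 4.0.1, STAR 2.7.8a and STARsolo 2.7.9a were used; no source used here states the annotation or the strand setting. Libraries used 10x Genomics single-cell 3' v2 chemistry on sorted cells, per the labels' protocols.

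Cells needed the 99th percentile of UMIs of the top 3000 barcodes divided by 10, 300 genes and at most 10% mitochondrial counts. This gave unlike minimums of 5145 UMIs (WT) and 6297 UMIs (KO). With 500 UMIs as the minimum in both, myogenic-like cells numbered 776 (WT) and 1112 (KO), with medians of 16189 and 3256.5 UMIs. Of these cells 53 (WT) and 577 (KO) fell in a cluster without a state name. Scrublet's own threshold marked 4 WT and 2 KO barcodes, so barcodes with the top scores were taken out instead, 0.8% for every 1000 barcodes (356 WT and 290 KO). Both libraries were clustered together in scanpy 1.11.5 (2000 variable genes, 30 components, 15 neighbours, Leiden resolution 1) without 97 imprinted genes, giving 32 clusters. Clusters were named from marker lists, with the scoring rule chosen after the data were seen; myogenic states are clusters of that class, not a separate sub-clustering. UMIs were summed per library and class as CPM, with exact Poisson intervals, conditional binomial intervals for ratios and exact Clopper-Pearson intervals for shares, tested on simulated data.

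A member was measured with 20 UMIs over both libraries and given in full with 20 CPM in 1 library. Of each supporting list up to 4 genes were named. Members and lists were chosen with earlier results of these data known. Of the gene identifiers 55227 were found in GENCODE M21, which gave coordinates on GRCm38. Alternatives changed cell and gene minimums, clustering, naming, doublets, centring, weighting, fold, pseudocount and thinning.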

Additional observations from a re-analysis of the deposited data

Results flagged for a closer look

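Differences in opposite directions between cell classes were seen for 3 members, each past 1.5-fold both ways with counting intervals that exclude 1. The difference between the classes was not tested in any of them. H19 had a KO/WT ratio of 0.655 in myogenic-like and 3.40 in mural-like cells. Cdkn1c had 0.521 in myogenic-like, 0.564 in fibro-adipogenic or fibroblast-like and 0.607 in endothelial-like cells against 2.11 in tenocyte-like cells, where 1 cell held most KO UMIs. Impact had 0.651 in dendritic-like and 1.64 in tenocyte-like cells. The dendritic value was nearer to 1 than 1.5-fold under several other settings, at 0.931, 0.945, 0.946 and 1.03 for 3 other UMI minimums and naming by own markers, so that side of the contrast depends on the processing.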

How the results depend on the processing

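No paired analysis was possible because each group has 1 library and the groups share no replicate label. Over the alternatives 1002 values stayed within the counting error or the 1.5-fold range of the value given and 172 moved, some of them across 1. A further 5, of ratios that were past 1.5-fold, were on the other side of 1. In myogenic-like cells Mest ranged from 0.355 to 0.427, Plagl1 from 0.258 to 0.391 and Cdkn1c from 0.308 to 0.556 over 12 alternatives each, all below 1. The 5 were Impact in dendritic-like cells (1.03 with a minimum of 2000 UMIs per cell), Peg3 in mural-like cells (0.731 with each cell named by its own markers), Cdkn1c in tenocyte-like cells (0.745 without the top cells, an alternative added after the data were seen) and Zim1 in the stem state (1.05 with states from own markers, and 1.07 in stem cells without a UMI of Myog, Mymk, Mki67 or Top2a, also added later); the cause was not tested. The count of paternally expressed genes higher past the fold was 0 in place of 1 with a fold of 2, at least 100 UMIs, a minimum of 2000 UMIs, a higher minimum or centred ratios. The count of maternally expressed genes lower past the fold was 2 in place of 4 with a fold of 2, and their median log2 ratio was -0.23 with at least 5 UMIs, which adds genes of few counts. H19 in mural-like cells was at 6.24 with a minimum of 2000 UMIs. With 1 library per group, animals and handling cannot be told apart from genotype, and members under 20 UMIs were not detectable as different at this depth.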
